A study of Mus musculus with 2 samples.

Results

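Fos, Fosb, Fosl2, Jun, Junb, Jund and Atf3 encode subunits of activator protein 1 (AP-1), a set of transcription factors that bind DNA as pairs. The 7 genes were taken by symbol from 2 count matrices of mouse islet cells that list 32285 genes each, and all 7 were found in both. The islets came from NOD mice, in which immune cells enter the islets and autoimmune diabetes follows. Mice of both groups were 5 weeks old at the start and were fed for 5 weeks. One group ate HAMS, a maize starch high in amylose, and the other ate HAMSAB, in which the same starch bears acetyl and butyryl groups. Strain, age and feeding time were shared, so the diet is what the labels set apart. The labels name no group without either starch and do not say how many mice were pooled.

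AP-1 works through dimers. Fos, Fosb and Fosl2 proteins bind DNA only together with a Jun protein, while Jun, Junb and Jund can pair with each other, and Atf3 pairs with Jun proteins or with itself. The RNAs of Fos, Fosb, Jun, Junb and Atf3 are immediate early transcripts: existing kinases and factors switch them on within minutes of a stimulus, and the RNA is short-lived. In the islet, glucose and signals that raise calcium or cyclic AMP are known to induce Fos in beta cells, and in T and B cells antigen receptor signals induce it. Jund is the member that resting cells usually hold at a steady level.

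Each diet had 1 library, made with a Chromium 3' kit, so a difference between the diets has no replicate check and no test was made between them. The libraries held 4352 HAMS and 5022 HAMSAB barcodes, with 3599756 and 4254040 unique molecular identifiers (UMIs, each marking 1 captured RNA molecule). Of these, 4185 and 4628 cells were kept, with a median of 704 and 705 UMIs. The libraries shared 6 barcode sequences, 4 of them among kept cells. Cells were grouped into 12 classes with at least 20 cells in each library, named by marker genes ("beta-like" and so on); 1 of them, a cluster that met no name and is led by Ifitm1, Il1r2 and Pak1, is called cluster 6. The alpha-like cluster is led by Ppy as well as Gcg, so it also holds gamma cells, and 1 of the 2 cDC-like clusters (conventional dendritic cells), cluster 8, had no dendritic marker among its 10 leading genes. The leading genes of the endothelial-like cluster include the fibroblast markers Col1a1 and Dcn beside the endothelial markers Flt1, Kdr and Plvap, so it is a mixed class. Levels are given as CPM, the gene's UMIs in a class and library per 1000000 UMIs there. The log2 ratio sets HAMSAB over HAMS, so a negative value is lower in HAMSAB. Every interval is a 95% interval and covers counting error only.

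The sequences just upstream of 4 of the genes are shown because their levels differed in unlike ways between the libraries. Fos and Jun were the members most often lower in HAMSAB, and Fosb and Junb are relatives of theirs in this set. How near the members are to each other in sequence was not compared. They are from RefSeq on build GRCm38.p6, are written 5' to 3' on the gene's strand, and end at the transcription start that RefSeq gives or, for Fosb, at the start in GENCODE vM21. Capitals mark TGACG, a part of the full cyclic AMP response element TGACGTCA, in Fos, Fosb and Junb. They also mark the letters of a variant AP-1 site in Jun and of the TATA box of Fos.
Fos, chr12:85473640-85473889, plus strand, 250 bases: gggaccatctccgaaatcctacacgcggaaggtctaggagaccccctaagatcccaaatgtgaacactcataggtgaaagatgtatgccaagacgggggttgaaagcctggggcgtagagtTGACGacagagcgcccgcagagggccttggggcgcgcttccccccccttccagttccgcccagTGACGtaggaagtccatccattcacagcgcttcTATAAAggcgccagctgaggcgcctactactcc
Fosb, chr7:19310052-19310295, minus strand, 244 bases: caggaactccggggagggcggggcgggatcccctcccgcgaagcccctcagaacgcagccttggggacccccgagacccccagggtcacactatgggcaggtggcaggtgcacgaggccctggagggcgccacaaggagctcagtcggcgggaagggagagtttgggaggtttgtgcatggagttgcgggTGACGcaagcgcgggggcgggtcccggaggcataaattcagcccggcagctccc
Jun, chr4:95052223-95052472, minus strand, 250 bases: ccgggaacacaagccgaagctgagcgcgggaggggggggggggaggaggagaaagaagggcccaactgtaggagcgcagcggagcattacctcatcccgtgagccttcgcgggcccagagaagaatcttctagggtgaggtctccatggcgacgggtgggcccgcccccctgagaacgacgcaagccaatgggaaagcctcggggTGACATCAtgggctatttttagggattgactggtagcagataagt
Junb, chr8:84978749-84978998, minus strand, 250 bases: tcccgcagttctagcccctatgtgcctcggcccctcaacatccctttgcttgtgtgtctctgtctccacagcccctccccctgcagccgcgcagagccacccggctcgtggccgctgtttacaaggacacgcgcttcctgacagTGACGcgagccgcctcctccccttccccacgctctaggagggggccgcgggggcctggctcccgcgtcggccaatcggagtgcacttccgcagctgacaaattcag
The genes themselves lie at chr12:85473890-85477273 (Fos), chr7:19302696-19310051 (Fosb), chr4:95049034-95052222 (Jun) and chr8:84974484-84978718 (Junb) in GENCODE vM21. No annotated gene covers the Fos, Fosb and Junb windows, and the antisense gene Junos covers the Jun window. Counted from the RefSeq start, Fos holds TGACG 129 to 125 and again 66 to 62 bases upstream, while its TATA box, TATAAA, lies 33 to 28 bases upstream. Fosb holds TGACG 60 to 56 bases upstream and Junb 106 to 102. Jun holds TGACATCA 45 to 38 bases upstream.

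Over the 250 bases before the RefSeq start, both strands were searched in all 7 members and in 32851 windows of the table. TGACG, which also lies inside TGACGTCA, was found in 4 of 7 members (Fos, Fosb, Junb and Atf3) and in 17.8% of all windows. TATAAA was found in Fos alone among the members and in 12.4% of windows, and TGACATCA in Jun alone and in 2.93%. The full AP-1 site TGACTCA was in 0 of 7 members and 4.46% of windows, TGACGTCA in 0 of 7 and 1.55%, and the core of the serum response element in 0 of 7 and 1.47%. These are matches of letters in 1 window per gene, and TGACG, TGACATCA and TATAAA were added to the search after the sequences had been seen. Bases farther upstream were not searched, so a site not found here may still lie there. For Fosl2 and Atf3 the window lies inside the gene as GENCODE draws it. The Jund window ends at chr8:70697738, apart from the gene start at 70698949 in GENCODE. The sequences of these 3 members are not shown.

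Fos RNA was a feature of endocrine, ductal-like, endothelial-like and macrophage-like cells rather than of lymphocytes. In the HAMS library Fos stood at 5259.8 CPM in endothelial-like cells, 4009.8 in beta-like, 3406 in ductal-like, 3352 in delta-like, 2736 in alpha-like and 2342 in macrophage-like cells. It stood at 1416 in plasma-like cells, 732 in cluster 6, 646 in plasmacytoid dendritic (pDC-like) cells, 433 in cDC-like, 274 in T-like and 138 in B-like cells. Neighbours in that order whose intervals overlapped were ductal-like with delta-like cells, cluster 6 with pDC-like cells, and pDC-like with cDC-like cells. In the HAMSAB library the order differed at the top: ductal-like (2609), endothelial-like (2551) and beta-like cells (2196) led, and macrophage-like cells (1164) stood beside delta-like cells (1004). Alpha-like cells, at 495 CPM, overlapped cluster 6 at 491. T-like and B-like cells were again near the bottom, with 130.1 and 144 CPM.

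**Figure D1:**
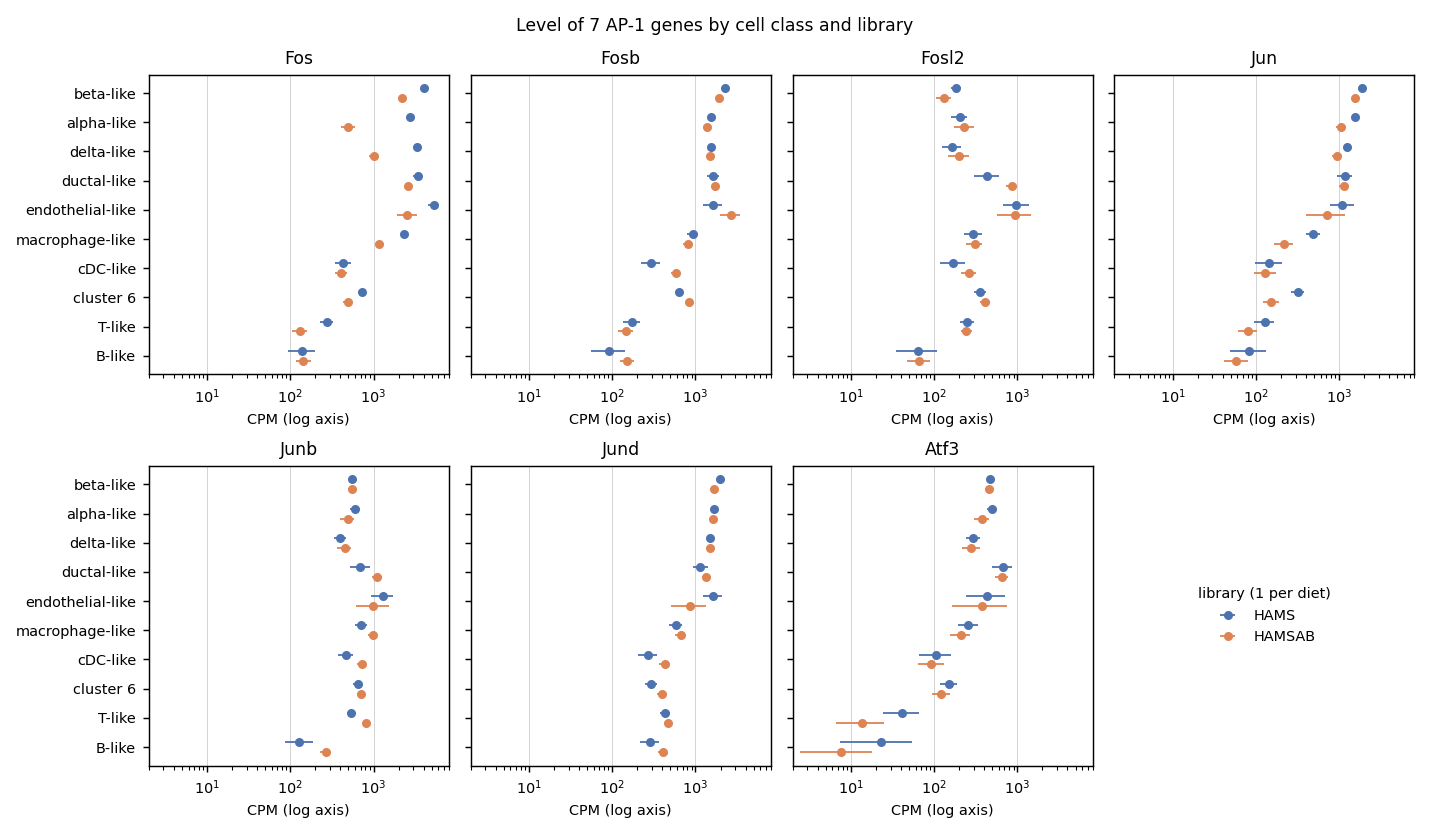
Level of each of the 7 genes in CPM (log axis) in 10 cell classes, blue for the HAMS and orange for the HAMSAB library, with 95% counting intervals; plasma-like and pDC-like cells are left out for their small numbers. Fos in alpha-like cells is at 2736 in HAMS and 495 in HAMSAB, while Jund there is at 1651 and 1629.

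Fos was lower in HAMSAB in 9 of the 10 classes in which it had at least 50 UMIs over both libraries, and the interval lay below 0 in 8 of them. The ratio was lowest in alpha-like cells. There 1120 Fos UMIs in 536 HAMS cells stood against 114 UMIs in 305 HAMSAB cells, a log2 ratio of -2.47 (interval -2.76 to -2.19), or 5.52-fold less. Only 2 of the 1939 genes measured in these cells had a lower ratio. In delta-like cells 1206 UMIs stood against 246, a ratio of -1.74 (-1.94 to -1.54) or 3.34-fold less, and again only 2 of 1885 genes had a lower ratio. In beta-like cells, where both libraries hold the most Fos UMIs, 4413 stood against 1620. That ratio was -0.87 (-0.95 to -0.79), a 1.83-fold difference, and 136 of 4681 genes were lower still.

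Among genes with at least 50 UMIs, 2.53% were at least 2-fold lower in HAMSAB in alpha-like cells and 0.774% at least 2-fold higher. Of the 7 members, which all passed that minimum in the 3 endocrine classes, Fos alone was 2-fold lower in alpha-like cells, and 0 were 2-fold higher. In delta-like cells 1.01% of genes were 2-fold lower and 1.11% higher, and Fos was the only member past that fold. In beta-like cells 1.79% of genes were 2-fold lower and 1.35% higher, and no member was among them. Scaling by the median ratio of all genes in place of the class total turned the numbers of genes higher and lower from 15 and 49 to 24 and 39 in alpha-like cells, and from 21 and 19 to 15 and 27 in delta-like cells. Fos was then at -2.40 and -1.81.

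The Fos difference in alpha-like cells lay both in how many cells held Fos and in how much each held. Fos was found in 301 of 536 HAMS cells (56.2%) and 70 of 305 HAMSAB cells (23.0%), with medians of 635.5 and 646 UMIs per cell. At an equal depth of 500 UMIs, which leaves out 167 and 90 shallower cells, it was found in 50.7% of HAMS (45.5 to 55.9) and 19.5% of HAMSAB cells (14.5 to 25.5). B-like cells at the same depth had 4.73% and 5.31%. They do not give the level of stray RNA in alpha-like cells, which was not measured. Beta cell markers summed to 1094 (HAMS) and 2871 CPM (HAMSAB) in B-like cells, against 8089 and 1464 in alpha-like cells. Delta cell markers summed to 800 and 451 CPM, against 6423 and 1577. Cells with 4 or more Fos UMIs at that depth were 14.9% of HAMS (11.4 to 19.0) and 0.930% of HAMSAB alpha-like cells (0.113 to 3.32). The cell with the most Fos held 17 UMIs in HAMS and 4 in HAMSAB.

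Delta-like cells showed the same form. The share of Fos-positive cells was 58.4% in HAMS and 40.1% in HAMSAB, and 51.2% and 32.1% at 500 UMIs, without 118 and 116 shallower cells. Cells with 4 or more UMIs were 21.1% of HAMS (16.9 to 25.9) and 0.905% of HAMSAB delta-like cells (0.110 to 3.23). The mean over positive cells was 4.55 UMIs against 1.82.

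Beta-like cells differed mainly at the high end. Nearly the same share was positive in both libraries, 72.6% in HAMS and 70.4% in HAMSAB, with medians of 673 and 803 UMIs per cell. At 500 UMIs, without 406 and 145 shallower cells, the shares were 64.8% (61.6 to 67.8) and 57.8% (53.7 to 61.8). Cells with 4 or more Fos UMIs were 23.4% against 7.77%, with intervals of 20.7 to 26.2 and 5.74 to 10.2. The highest cell held 33 UMIs in HAMS and 14 in HAMSAB.

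**Figure D2:**
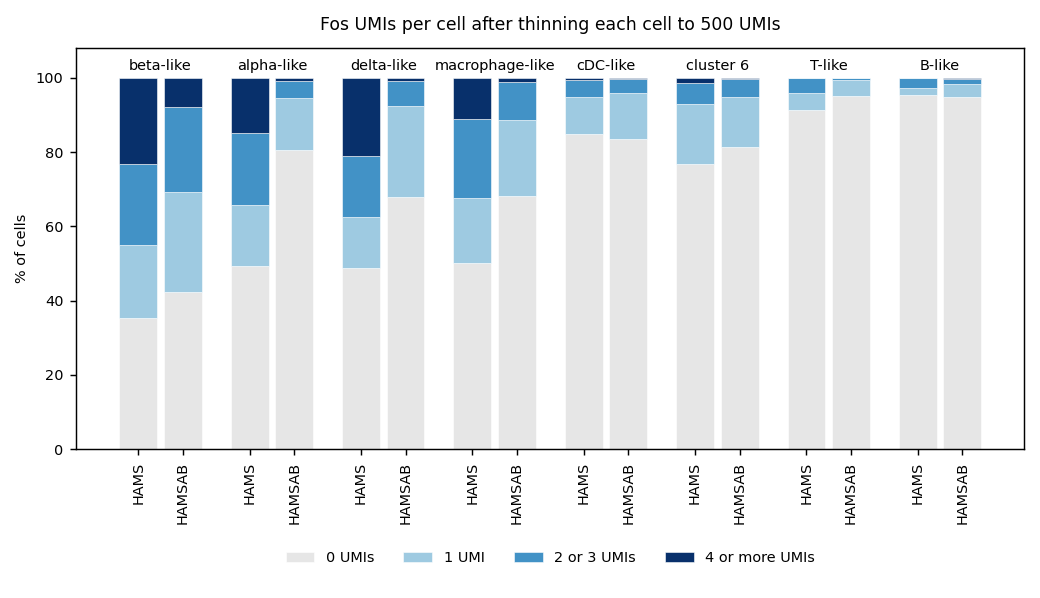
Share of cells (%, bars to 100) with 0, 1, 2 or 3, and 4 or more Fos UMIs after each cell was thinned to 500 UMIs, in 8 classes and both libraries. The part for 4 or more UMIs is 23.4% in HAMS and 7.77% in HAMSAB beta-like, 14.9% and 0.930% in alpha-like, 21.1% and 0.905% in delta-like and 11.1% and 1.03% in macrophage-like cells.

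RNA of other endocrine cells moved with these differences. The summed level of the 10 beta cell markers was 8089 CPM in HAMS and 1464 in HAMSAB alpha-like cells, with 10 and 9 of the 10 detected and Ucn3 at 0 in HAMSAB. In delta-like cells it was 9889 and 7788, again with Ucn3 at 0 in HAMSAB. The 5 delta cell markers summed to 6423 and 1577 CPM in alpha-like cells, with 5 and 3 detected and Hhex and Ghsr at 0 in HAMSAB, and to 2869 and 798 in beta-like cells, with Ghsr at 0 in both. The 9 alpha cell markers summed to 11082 and 5005 CPM in delta-like cells, with 6 detected in both libraries. The part of alpha and delta cell RNA in the Fos ratios was not tested. Without cells in which insulin and amylin genes (Ins1, Ins2 and Iapp) gave 1% or more of UMIs, a setting added after the values were seen, 475 and 300 alpha-like cells gave a Fos ratio of -2.42. In the same way 366 and 281 delta-like cells gave -1.58. Median mitochondrial shares were 1.54% and 1.72% in alpha-like, 1.04% and 1.20% in delta-like and 1.10% and 0.882% in beta-like cells, and their part in the results was not tested.

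The 3 beta-like clusters did not give 1 common Fos ratio. Cluster 4, led by Mafa, Slc2a2 and Ucn3, genes of mature beta cells, had 2387 UMIs in 611 HAMS cells and 838 in 350 HAMSAB cells, a ratio of -1.08 (-1.20 to -0.97). Cluster 3, whose leading genes include Ins1 and Ins2, had -0.39 (-0.54 to -0.24). Cluster 5, led by interferon-induced genes such as Iigp1, Gbp4 and Rsad2, had -0.41 (-0.67 to -0.15). Its positive share was 50% in HAMS and 69.9% in HAMSAB. Those shares cover all its cells and were not taken at equal depth, so they are not read as a difference. These clusters were built from variable genes with no early gene left out, and their cell numbers differ between the libraries, with 660 and 254 cells in cluster 3, and 94 and 133 in cluster 5.

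Outside the endocrine cells the Fos interval lay below 0 in macrophage-like, T-like, endothelial-like and ductal-like cells and in cluster 6. Macrophage-like cells had 511 UMIs in 281 HAMS cells and 319 in 387 HAMSAB cells, a ratio of -1.01 (-1.22 to -0.80), where 1.89% of genes were at least 2-fold lower and 1.59% higher. Their share of cells with Fos at 500 UMIs was 49.8% (43.2 to 56.4) in HAMS and 31.7% (26.4 to 37.4) in HAMSAB, without 46 and 97 shallower cells, against 53.4% and 42.1% of all their cells. All 8 macrophage markers were detected in both libraries, with summed levels of 4456 and 3926 CPM, while beta cell markers there were at 2485 and 1613. Endothelial-like cells, 58 and 28 in number, had a ratio of -1.04 (-1.51 to -0.60), in a class where 12.7% of 134 genes were 2-fold lower and 3.73% higher. Their beta cell markers were at 27161 CPM in HAMS and 1795 in HAMSAB, and their gamma cell markers at 8594 and 283. The 8 endothelial markers, all detected in both libraries, summed to only 6668 CPM in HAMS and 5290 in HAMSAB. The 8 fibroblast markers there summed to 9887 CPM in HAMS, with 4 detected, and 18043 in HAMSAB, with 6 detected, and Pdgfra and Pdgfrb were at 0 in both. The part of these in the ratios of Fos, Fosb and Jund in endothelial-like cells was not tested.

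T-like cells had 112 Fos UMIs in HAMS and 95 in HAMSAB, a ratio of -1.07 (-1.48 to -0.66), where 0.889% of genes were 2-fold lower and 2.35% higher. The share of T-like cells with Fos was 14.0% and 9.31%. At 500 UMIs it was 8.71% (5.60 to 12.8) and 4.95% (3.28 to 7.11), without 51 and 152 shallower cells. These intervals overlap each other and those of B-like cells, 1.92 to 9.50 and 3.50 to 7.68, so neither share is read as clear of background. In T-like cells alpha cell markers summed to 1326 and 818 CPM, delta to 1026 and 279 and beta to 3297 and 4868. Their part in the ratio was not tested. Cluster 6 had -0.58 (-0.81 to -0.34) and ductal-like cells -0.38 (-0.60 to -0.17). The interval spanned 0 in B-like cells, where 30 and 94 UMIs gave 0.06 (-0.55 to 0.71), and in cDC-like cells, where 90 and 145 gave -0.08 (-0.47 to 0.31). The 2 cDC-like clusters went apart, with -0.57 (-1.10 to -0.05) in cluster 1 and 0.55 (-0.09 to 1.23) in cluster 8. Plasma-like cells held 29 and 17 Fos UMIs and pDC-like cells 11 and 2, under the minimum of 50.

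Fosb, a relative of Fos whose product also pairs with Jun proteins, did not share its pattern. In HAMS it was highest in beta-like cells, with 2287 CPM, followed by ductal-like (1629), endothelial-like (1610), alpha-like (1551) and delta-like cells (1551), 4 classes whose intervals overlap. In alpha-like cells 635 UMIs stood against 318, or 1551 and 1382 CPM, a ratio of -0.17 (-0.37 to 0.03). In delta-like cells 558 stood against 365, a ratio of -0.06 (-0.25 to 0.13). Its positive share at 500 UMIs in alpha-like cells was 44.7% in HAMS and 45.6% in HAMSAB. In beta-like cells Fosb was lower, with 2517 and 1401 UMIs and a ratio of -0.27 (-0.36 to -0.17).

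In cDC-like cells Fosb was higher in HAMSAB, with 61 UMIs in 213 HAMS cells and 208 in 365 HAMSAB cells. The ratio was 0.999 (0.58 to 1.44), just under the 2-fold line past which 3.30% of genes were higher. It was 1.07 (0.52 to 1.65) in cluster 8 and 0.58 (-0.10 to 1.29) in cluster 1. With clusters built without early genes it was 0.24 (-0.38 to 0.87), with finer clusters 0.30 (-0.53 to 1.18), when cells were classed singly by markers 0.24 (-0.64 to 1.15), and with at least 500 genes per cell 0.43 (-0.17 to 1.06). The share of Fosb-positive cDC-like cells was 19.7% and 34.2%, and 12.6% and 23.3% at 500 UMIs. Fosb was higher as well in endothelial-like cells, at 0.72 (0.16 to 1.28), and in cluster 6, at 0.41 (0.19 to 0.62), where it was 0.02 (-0.56 to 0.59) when thinned to 1000 UMIs. In B-like cells, where 20 and 99 UMIs were counted, the ratio was 0.72 (0.02 to 1.49), but -0.10 (-1.07 to 0.97) at 500 UMIs, with positive shares of 6.08% and 6.53% there. T-like and macrophage-like cells had ratios of -0.26 and -0.19 with intervals that span 0.

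Fosl2, also of the Fos family, was low in endocrine cells and had its highest level in endothelial-like cells, with 977 CPM in HAMS and 945 in HAMSAB. Beta-like cells had 183 and 131 CPM, from 201 and 97 UMIs, a ratio of -0.47 (-0.84 to -0.12). The beta-like clusters differed, with 0.44 (-0.16 to 1.01) in cluster 3, -0.51 (-1.03 to -0.01) in cluster 4 and -2.24 (-3.55 to -1.05) in cluster 5, the last from 21 and 9 UMIs. Thinned to 500 UMIs, the beta-like value was -0.50 (-1.06 to 0.04). Ductal-like cells had 432 and 854 CPM, from 35 and 159 UMIs, a ratio of 0.98 (0.45 to 1.55), where 4.95% of genes were at least 2-fold higher. It was found in 33.3% of 75 and 49.7% of 185 ductal-like cells, and in 14.9% and 31.6% at 500 UMIs, where the intervals (7.40 to 25.7 and 24.3 to 39.6) overlap. In cDC-like cells it was at 0.62 (0.05 to 1.23), from -0.03 (-1.12 to 1.11) in cluster 1 and 0.68 (-0.03 to 1.44) in cluster 8, whose intervals both span 0. Its value there ran from -0.07 when cells were classed singly by markers to 1.80 with finer clusters. In the other 7 classes with enough UMIs the interval spans 0.

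Jun, which supplies the partner of Fos proteins, followed Fos in direction but with smaller differences in endocrine cells. Beta-like cells had 1888 CPM in HAMS and 1537 in HAMSAB, from 2078 and 1134 UMIs, with a ratio of -0.30 (-0.40 to -0.19). That interval reached past 0 with at least 500 genes per cell, at -0.12 (-0.26 to 0.02), and when thinned to 1000 UMIs, at -0.06 (-0.25 to 0.14). Alpha-like cells had 1537 and 1038 CPM, a ratio of -0.57 (-0.79 to -0.35), and delta-like cells 1242 and 938, a ratio of -0.41 (-0.64 to -0.17). Without cells holding 1% or more insulin and amylin UMIs the delta value was -0.13. Within beta-like cells, Jun was at -0.67 (-0.81 to -0.53) in cluster 4, -0.02 in cluster 3 and 0.42 (0.11 to 0.73) in cluster 5.

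The lowest Jun ratios were in macrophage-like cells and cluster 6. Macrophage-like cells held 106 Jun UMIs in HAMS and 60 in HAMSAB, or 486 and 219 CPM, a ratio of -1.15 (-1.63 to -0.68), and 11 of 1322 genes had a lower one. Cluster 6 held 145 and 83, a ratio of -1.05 (-1.46 to -0.65), and 18 of 2328 genes were lower. The Jun-positive share at 500 UMIs was 16.6% and 6.21% in macrophage-like cells and 12.6% and 5.24% in cluster 6, against 3.38% and 2.04% in B-like cells. T-like cells had -0.65 (-1.21 to -0.09), and -0.74 (-1.74 to 0.27) when thinned to 500 UMIs. Jun overlaps the antisense gene Junos, and no source used here states whether counting used the strand, so their reads cannot be told apart. Junos itself had 37 and 21 UMIs in beta-like cells and at most 7 in any other class and library.

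Junb was the member most often higher in HAMSAB, with intervals above 0 in 5 of the 10 classes where it was measured and below 0 in none. Junb protein also pairs with Fos and is known as a weaker activator than Jun. B-like cells had 28 UMIs in 192 HAMS cells and 175 in 645 HAMSAB cells, or 129 and 268 CPM, a ratio of 1.06 (0.48 to 1.69). There 2.98% of genes were at least 2-fold higher. The share of Junb-positive B-like cells was 12.0% (7.75 to 17.4) and 18.9% (16.0 to 22.2), and 8.11% (4.26 to 13.7) and 11.8% (9.11 to 15) at 500 UMIs, where the intervals overlap. T-like cells had 542 and 803 CPM, a ratio of 0.57 (0.34 to 0.80), with 23.9% and 32.2% of cells positive at 500 UMIs. Macrophage-like cells had 0.46 (0.17 to 0.76), cDC-like cells 0.63 (0.29 to 0.99) and ductal-like cells 0.66 (0.22 to 1.11). The cDC-like value depends on which cells are counted: it was -0.27 (-0.83 to 0.30) with finer clusters, -0.08 (-0.55 to 0.40) with clusters built without early genes and -0.23 (-0.92 to 0.47) when cells were classed singly by markers. Thinned to 500 UMIs, the interval spans 0 in B-like cells, at 0.62 (-0.26 to 1.60), in macrophage-like cells, at 0.40 (-0.01 to 0.83), and in cDC-like cells, at 0.48 (-0.01 to 1.0).

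In the endocrine classes Junb was near even, with -0.01 (-0.20 to 0.17) in beta-like, -0.30 (-0.63 to 0.03) in alpha-like and 0.16 (-0.21 to 0.53) in delta-like cells. Within cDC-like cells the difference was in cluster 8, at 1.10 (0.59 to 1.64), with -0.07 (-0.57 to 0.45) in cluster 1. Junb overlaps Prdx2 on the opposite strand. Prdx2 had at most 20 UMIs in any class and library.

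Jund, the member that resting cells keep, stood at nearly the same level in both libraries in alpha-like and delta-like cells. Alpha-like cells had 1651 and 1629 CPM, a ratio of -0.02 (-0.21 to 0.16), and delta-like cells 1504 and 1485, a ratio of -0.02 (-0.21 to 0.18). Beta-like cells had 1984 and 1685 CPM, a ratio of -0.24 (-0.34 to -0.13). Jund was higher in HAMSAB in cDC-like cells, at 0.66 (0.21 to 1.13), in B-like cells, at 0.50 (0.09 to 0.92), and in cluster 6, at 0.44 (0.12 to 0.76). Thinned to 500 UMIs, the 3 intervals span 0, at 0.17 (-0.52 to 0.90), 0.43 (-0.30 to 1.24) and 0.34 (-0.08 to 0.77). In cluster 6 Jund was at -0.46 (-1.40 to 0.44) when thinned to 1000 UMIs and -0.23 under the 500-gene minimum, and in B-like cells at 0.11 with cells weighted equally. It was lower in endothelial-like cells, at -0.92 (-1.77 to -0.13). The antisense gene Gm11175 overlaps Jund, and had 211 and 131 CPM in beta-like cells and 217 and 135 in alpha-like cells; without a stated strand setting their reads cannot be told apart.

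Atf3, a stress-induced factor that can repress as well as activate, was highest in ductal-like cells, with 666 CPM in HAMS and 649.6 in HAMSAB (54 and 121 UMIs). Beta-like cells had 468 and 453 CPM, a ratio of -0.05 (-0.25 to 0.15), and 25.2% and 27.7% of them were positive. Alpha-like cells had 493 and 374 CPM, a ratio of -0.40 (-0.78 to -0.03). Of the 7 classes with enough Atf3 UMIs, alpha-like cells were the only one where the interval excluded 0 (at 500 UMIs the value was -0.08, -0.62 to 0.46), and the ratio was below 0 in 7 of 7. T-like cells held 17 and 10 Atf3 UMIs and B-like cells 5 and 5.

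**Figure D3:**
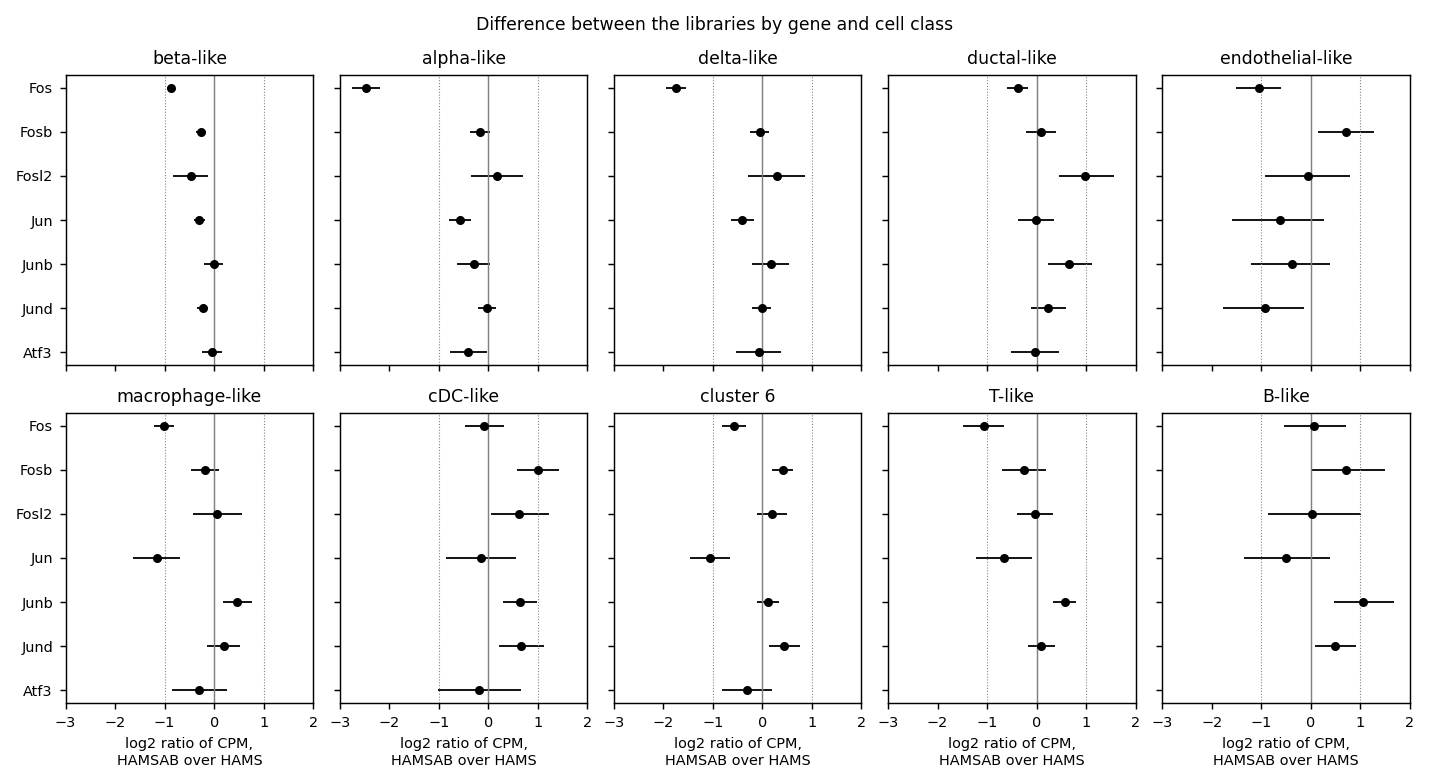
Log2 ratio of CPM, HAMSAB over HAMS, for each gene with at least 50 UMIs in 10 cell classes, with 95% counting intervals; dotted lines mark 2-fold and the solid line no difference. Fos lies left of 0 in 9 of 10 panels, lowest at -2.47 in alpha-like cells, and Junb lies right of 0 in 7.

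Among members with at least 50 UMIs in a class, only Junb was at least 2-fold higher, in B-like cells, and at least 2-fold lower were Fos in alpha-like, delta-like, macrophage-like, T-like and endothelial-like cells and Jun in macrophage-like cells and cluster 6. In cluster 6, 0.859% of genes were 2-fold lower and 0.988% higher. No member passed 2-fold in cDC-like cells (1.51% of genes lower and 3.30% higher) or ductal-like cells (1.69% and 4.95%), and none was 2-fold lower in B-like cells (0.903% of genes). Members were also counted by the side of 0 on which their interval lay. In beta-like cells 5 of 7 members had an interval below 0 and 0 above it, where 11.8% and 14.0% of all genes did. Alpha-like cells had 3 below and 0 above (12.8% and 7.74% of genes), and delta-like cells 2 below and 0 above (7.0% and 10.7%). T-like cells had 2 below and 1 above among 6 members measured (8.35% and 10.1%), and macrophage-like cells 2 and 1 of 7 (9.15% and 9.91%). B-like cells had 0 below and 3 above among 6 (6.59% and 8.52%), and cDC-like cells 0 and 4 of 7 (8.91% and 12.6%). Cluster 6 had 2 and 2 of 7 (8.20% and 10.4%), ductal-like cells 1 and 2 of 7 (8.72% and 11.1%), and endothelial-like cells 2 and 1 of 6 (18.7% and 10.4%). An interval excludes 0 more readily where UMIs are many, so the shares over all genes are a background for the rule and not for genes as abundant as Fos. The median over the members was -0.27 in beta-like, -0.30 in alpha-like, -0.06 in delta-like, -0.15 in T-like, -0.19 in macrophage-like and -0.50 in endothelial-like cells. It was 0.28 in B-like cells, 0.62 in cDC-like cells, 0.09 in ductal-like cells and 0.12 in cluster 6, beside medians between -0.08 and 0.07 over all genes in the 12 classes.

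A share of UMIs within a pair of related genes does not depend on how the class total is scaled. Of all Fos and Fosb UMIs in a class, Fos made up a smaller share in HAMSAB in 12 of 12 classes, and the intervals lay apart in 9. Those 9 include plasma-like cells, with 36 and 39 UMIs of the pair, and pDC-like cells, with 16 and 20. The shares use the same UMIs as the ratios above, and pairs of genes other than the members were not measured. In alpha-like cells the Fos share was 63.8% in HAMS (61.5 to 66.1) and 26.4% in HAMSAB (22.3 to 30.8). In delta-like cells it was 68.4% and 40.3%, in beta-like cells 63.7% and 53.6%, in macrophage-like cells 71.7% and 58.9%, and in cluster 6 53.6% and 36.9%. In cDC-like cells, where Fos itself was near even, the share was 59.6% (51.3 to 67.5) and 41.1% (35.9 to 46.4). T-like, B-like and ductal-like cells were the 3 classes whose intervals overlapped. Jun was set against 2 relatives in the same way.

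Jun took a smaller share of Jun and Junb UMIs in HAMSAB in 11 of 12 classes, with intervals apart in 4. Those were macrophage-like cells (40.8% and 18.3%), cluster 6 (33.0% and 17.9%), T-like cells (19.0% and 9.15%) and B-like cells (39.1% and 17.8%). In beta-like cells the share was 77.5% and 73.8%, and in alpha-like cells 72% and 68.1%, with intervals that overlap. Against Jund the Jun share was smaller in 10 of 12 classes, with intervals apart in alpha-like cells (48.2% and 38.9%), macrophage-like cells (45.5% and 24.8%) and cluster 6 (52.0% and 27.8%). How well each RNA is captured differs by gene, so the shares are read between libraries and not as a ratio of molecules in the cell.

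**Figure D4:**
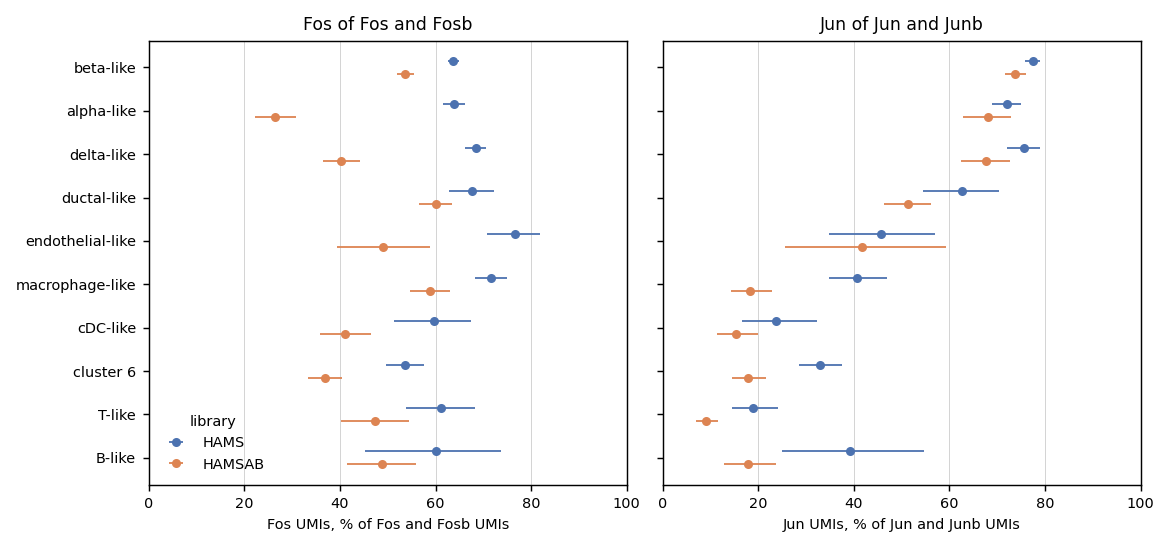
Share of Fos in Fos plus Fosb UMIs (left) and of Jun in Jun plus Junb UMIs (right), in %, in 10 cell classes, blue for HAMS and orange for HAMSAB, with 95% counting intervals. The Fos share is 63.8% and 26.4% in alpha-like cells, and every orange point lies left of its blue one in both panels.

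Fos was set against each of the other members cell by cell. At 500 UMIs per cell, over 8 classes in 2 libraries, Fos was found more often in cells with Jun than in cells without it in 16 of 16 cases. In 5 of them the intervals lay apart. For Fosb, Junb, Jund and Atf3 this held in 14 of 16 cases each, with intervals apart in 7, 6, 0 and 3, and for Fosl2 in 5 of 16 with 0 apart. At least 20 cells held the other member in 15 of the 16 cases for Fosb, Junb and Jund, 12 for Fosl2, 11 for Jun and 10 for Atf3. In HAMS beta-like cells Fos was found in 78.6% of cells with Jun (74.5 to 82.2) and 52.2% without (47.7 to 56.6), and in 83.5% with Junb and 59.8% without. In HAMSAB beta-like cells the shares were 65.1% with Jun (59.2 to 70.5) and 50.8% without (45.0 to 56.6). In HAMSAB alpha-like cells Fos was found in 26.5% of Fosb-positive cells (18.1 to 36.4) and 13.7% of the others, against 62.4% and 41.2% in HAMS. Thinning makes the depth equal, but doublets were kept, and their part in these shares was not tested. The same counts were not made for genes outside the members, so no background stands beside the counts of cases.

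Endocrine cells often held several members at once. At 500 UMIs, 3 or more of the 7 were found in 57.0% of HAMS and 54.2% of HAMSAB beta-like cells. The shares were 45.3% and 30.2% in alpha-like, 37.8% and 29.4% in delta-like and 25.1% and 18.6% in macrophage-like cells. T-like cells had 6.06% and 2.38%, and B-like cells 3.38% and 2.04%. No member at all was found in 73.6% of HAMS and 64.7% of HAMSAB B-like cells, against 4.48% and 7.09% of beta-like cells.

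The other dimer partners of AP-1, 13 of whose 14 listed genes are in the matrices, were sparse, and 5 had at least 50 UMIs in beta-like and in alpha-like cells. In alpha-like cells Mafg, a small Maf protein, was at -1.32 (-2.20 to -0.52). In T-like cells Maf was at 1.02 (0.72 to 1.32) from 120 and 433 UMIs, and in macrophage-like cells Maff at 1.51 (0.56 to 2.57) from 12 and 43. The list median was -0.14 in beta-like and -0.26 in alpha-like cells.

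Among 23 genes in the matrices for kinases and factors upstream of AP-1, 7 were higher and 9 lower of the 16 measured in beta-like cells, with a median of -0.12 and 0 past 2-fold. Map3k1, a kinase that feeds the Jun kinases, was lower in several classes, with -0.61 (-0.90 to -0.32) in beta-like, -0.70 (-1.12 to -0.29) in alpha-like, -0.76 (-0.94 to -0.57) in T-like and -0.63 (-0.90 to -0.36) in cDC-like cells. It was at -0.34 (-0.49 to -0.18) in cluster 6 and -0.17 (-0.55 to 0.21) in macrophage-like cells, and on the other side of 0 in ductal-like cells, at 0.56 (0.08 to 1.07). In B-like cells Map2k7, an activator of the Jun kinases, was at 1.76 (0.55 to 3.26) from 6 and 61 UMIs.

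The MAP kinase phosphatases and Sprouty genes, which damp the signals upstream of AP-1, were mixed, as were the Gadd45 genes listed with them. Of 14 listed genes 9 were measured in beta-like cells, 3 higher and 6 lower, with a median of -0.34. Gadd45b was at -1.41 (-2.15 to -0.72) and Gadd45g at -0.95 (-1.39 to -0.53) there, while Dusp10 was at 0.48 (0.13 to 0.82). Spry2 was at -0.68 (-1.09 to -0.28) in alpha-like, -0.90 (-1.66 to -0.19) in delta-like and -0.97 (-1.49 to -0.45) in cDC-like cells. Dusp1, a phosphatase of the Jun and p38 kinases, was at -0.46 (-0.83 to -0.09) in alpha-like cells and 0.49 (0.23 to 0.75) in cluster 6. In T-like cells 7 of 8 measured were higher, with Gadd45b at 0.97 (0.30 to 1.69), where 48.7% of all genes measured had a ratio below 0.

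Known AP-1 target genes gave few values, since only 4 of 15 had 50 UMIs in beta-like cells. Vegfa was at -0.26 (-0.45 to -0.08) in beta-like and -0.50 (-0.86 to -0.14) in alpha-like cells and at 0.09 (-0.27 to 0.43) in delta-like cells. Cd44 was at 1.28 (0.54 to 2.04) in delta-like and 1.64 (0.66 to 2.74) in macrophage-like cells, and Tnf at 0.63 (0.27 to 1.0) in macrophage-like and 1.25 (0.53 to 2.03) in cDC-like cells. Of 8 targets measured in macrophage-like cells 7 were higher, with a median of 0.27. Of 5 in cDC-like cells 5 were higher, with a median of 0.21. Over all genes measured, 48.3% had a ratio below 0 in macrophage-like and 43.4% in cDC-like cells. Some of these target intervals span 0, as for Vegfa at 0.001 (-0.67 to 0.68) in macrophage-like and 0.02 (-0.78 to 0.85) in cDC-like cells.

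Other immediate early genes did not all follow Fos. Of 17 listed, 9 were measured in alpha-like cells, 3 higher and 6 lower, with a median of -0.27 and 0 past 2-fold. Btg2, an antiproliferative early gene, was at -0.87 (-1.05 to -0.69) there, -1.07 (-1.35 to -0.79) in macrophage-like cells and -0.60 (-0.72 to -0.48) in cluster 6. Klf6 was higher in every endocrine class, with 0.81 in beta-like (0.60 to 1.03), 0.81 in alpha-like (0.49 to 1.14) and 0.81 in delta-like cells (0.45 to 1.17). In beta-like cells 4 were higher and 8 lower of 12 measured (median -0.32), and in delta-like cells 2 and 6 of 8 (median -0.33). Over all genes measured, 48.1% had a ratio below 0 in beta-like and 42.8% in delta-like cells. In delta-like cells Egr1 was at 0.18 (0.02 to 0.34) and Nr4a1 at -1.47 (-2.39 to -0.64). Egr1 was at -0.80 in macrophage-like cells, -0.90 in cluster 6 and 0.66 in ductal-like cells. Npas4, induced by calcium, was at -1.82 (-2.72 to -1.01) in beta-like cells from 79 and 15 UMIs. In T-like cells 11 of 12 measured were higher, with a median of 0.52, where 48.7% of all genes measured had a ratio below 0.

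Heat shock genes, which respond to protein damage and to handling of tissue, were mixed in endocrine cells. Of those measured, 4 were higher and 5 lower in beta-like cells (median -0.14), 3 and 4 in alpha-like (-0.32) and 3 and 6 in delta-like cells (-0.17). Their summed level over 10 genes was 3969.8 CPM in HAMS and 3250.5 in HAMSAB beta-like cells, 3613 and 3176 in alpha-like and 4578 and 4271 in delta-like cells. Dnajb1 was at -1.11 (-1.33 to -0.90) in beta-like, -1.53 (-2.05 to -1.03) in alpha-like and -1.52 (-1.96 to -1.10) in delta-like cells, and Hspa1b at -1.80 (-2.93 to -0.83) in alpha-like cells. In delta-like cells Hsph1 was at 0.54 (0.15 to 0.93) and Hsp90aa1 at 0.27 (0.08 to 0.45). In macrophage-like cells, where Fos was lower, 7 of 8 heat shock genes were higher, with a median of 0.43 and a sum of 3099 and 3492 CPM. In cDC-like cells 6 of 6 were higher, with a median of 0.80 and a sum of 1829.6 and 3009. Over all genes measured, 48.3% had a ratio below 0 in macrophage-like and 43.4% in cDC-like cells. What part the heat shock response has in the Fos ratios was not tested.

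Across the 24 points that 12 classes in 2 libraries give, the levels of Jun and Jund (Pearson r of 0.89 on log2(CPM + 10)) and of Fos and Atf3 (0.88) ran closest among the members. Fosl2 and Junb were at 0.83, and Fosl2 and Jund at 0.05. Among 4859 genes with at least 200 UMIs, the most like Fos were Dusp3 (0.86), Ttyh2 (0.86) and Hspa1b (0.83), and the most like Jun were Lmna (0.95), Klhl9 (0.93) and Iigp1 (0.91). Nearest to Fosb were Cpeb4 (0.92), Zfhx3 (0.89) and Wdfy3 (0.88), and to Junb were Dusp1 (0.85), Ifih1 (0.84) and Cd9 (0.80). Fosl2 had Zmiz1 (0.91), Rac1 (0.82) and Elf2 (0.81), Jund had Pam (0.90), Meg3 (0.89) and Klhl9 (0.89), and Atf3 had Wdfy3 (0.88), Rbpms (0.88) and Ifit1 (0.87). The points share their library in groups of 12 and each class enters with both diets, so the values describe likeness of pattern and carry no p-value.

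The authors' deposited table for alpha cells gives Fos a log2 fold change of -2.42 with an adjusted p of 9.6e-18. The authors' deposited table for delta cells gives -1.74 with an adjusted p of 1.04e-09, and the authors' deposited table for beta cells -0.83 with an adjusted p of 1.27e-07. The test behind these tables is not given in the sources used here, and with 1 library per diet it can rest on cells only, not on mice. For every other member entry in the authors' deposited tables the adjusted p is 1, among them Jun in alpha cells (-0.61), Fosb in beta cells (-0.38) and dendritic cells (0.42), Junb in T cells (0.53) and Fos in macrophages (-0.86). For dendritic cells the authors' deposited table gives Fos -0.42, where the cells grouped here gave -0.08.

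Barcodes under the minimum of 200 genes, 165 in HAMS and 391 in HAMSAB, showed the Fos difference as well. They held 2163 CPM of Fos in HAMS (1819.8 to 2553) and 681 in HAMSAB (559 to 823), while Junb there was at 494 and 486 CPM. Over all kept cells Fos was at 2353 and 848 CPM and Junb at 537 and 621, values that the cell makeup of each library sets in part.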

How the data were processed

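Single-cell RNA libraries of islet cells from NOD mice, 1 per diet, were read from the deposited count matrices of 10x Chromium 3' data. The matrices' UMI counts were made with Cell Ranger 5.0.0, per the file headers, and mm10 (GRCm38) and Seurat are named, per the submitters' processing notes. The authors' deposited tables of diet comparisons hold log2 fold changes and p-values per gene; no source used here says how they were normalized or tested, and 16 columns of these tables with shares of cells were not used, since their headers name no diet. Whether counting used the strand, how many mice gave each library and their sex are not given either.

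Barcodes were left out below 200 genes or above 20% mitochondrial UMIs. Counts were scaled to 10000 UMIs per cell, and 2000 variable genes, 30 principal components and 15 neighbours gave Leiden clusters at resolution 1 (scanpy 1.11.5, igraph 0.11.9). The details of the clustering were chosen among 8 combinations for cell numbers close to those of an earlier analysis of these data, without reading the members' values. A cluster was named from marker lists where at least 3 markers were detected. Scrublet called 4 of 8813 cells (0.0454%) doublets, too few for the call to be used, so all cells were kept, doublets included.

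UMIs were summed by class and library. Ratios carry exact conditional binomial intervals, levels exact Poisson intervals and shares Clopper-Pearson intervals (scipy 1.17.1). No p-value was computed. The interval script was tested on simulated data. Ranks and counts cover genes whose UMIs in a class reached 50 when the libraries were summed. For shares at equal depth each cell was thinned to 500 UMIs. From each list the text names some of the highest and lowest genes of a class, by a rule that ranks the ratio, and for likeness the 3 genes with the highest correlation. The members and lists were chosen with earlier results of these data known. The alternatives covered the cell filter, clustering, classing, depth, weighting, scaling and mixed barcodes. Upstream sequences were read from RefSeq (GRCm38.p6) and gene positions from GENCODE vM21.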

Additional observations from a re-analysis of the deposited data

Results flagged for a closer look

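For 3 members the ratio lay on opposite sides of 0 in 2 cell classes, with both counting intervals clear of 0; each class had 1 library per diet, and the difference between classes was not tested. Fosb had a log2 ratio of -0.27 in beta-like and 0.999 in cDC-like cells. Fosl2 had -0.47 in beta-like and 0.62 in cDC-like cells. Jund had -0.24 in beta-like and 0.66 in cDC-like cells. Within cDC-like cells the Fosb interval lay above 0 in cluster 8, at 1.07, and spanned 0 in cluster 1, at 0.58 (-0.10 to 1.29). The Jund interval lay above 0 in both, at 0.84 in cluster 8 and 0.57 in cluster 1, the latter with a lower bound of 0.00054. The Fosl2 intervals spanned 0 in both, at 0.68 and -0.03, and within beta-like cells Fosl2 was at 0.44 in cluster 3. Under other groupings of the cells Fosb and Fosl2 in cDC-like cells went down to 0.24 and -0.07.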

How the results depend on the processing

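Over 568 values of the 7 genes under other settings, 491 lay inside the counting interval of the reported ratio and 497 kept its sign. Jun in beta-like cells, whose reported interval lay below 0, was at 0.42 (0.11 to 0.73) in cluster 5 alone. In no other case did a ratio with an interval clear of 0 take one clear of 0 on the other side. No paired analysis was possible because each diet had 1 library. In delta-like cells every Fos value stayed between -1.93 and -1.58. Outside the interval of the reported value, Fos in beta-like cells was at -0.76 when 500 genes per cell were required, -0.59 when thinned to 1000 UMIs, and -0.39, -1.08 and -0.41 in clusters 3, 4 and 5. Classing each cell by its own markers gave -1.98 in alpha-like, -0.73 in macrophage-like, -0.97 in B-like and -0.79 in cDC-like cells. Thinning gave -1.55 in T-like (1000 UMIs), -1.38 in macrophage-like (500 UMIs) and -0.53 in cDC-like cells (1000 UMIs). A minimum of 500 genes gave 0.72 in B-like, -0.61 in cDC-like cells and -1.01 in cluster 6. Weighting cells equally gave -0.66 in B-like cells, and clusters built without early genes -0.51 in cDC-like cells, where cluster 1 was at -0.57 and cluster 8 at 0.55. The cause of these shifts was not tested. Fos in B-like and cDC-like cells thus had no settled sign. For the other 6 members, 426 of 484 values lay inside the reported interval and 420 kept the sign. With genes of at least 20 UMIs in place of 50, the genes at least 2-fold higher and lower were 273 and 367 in beta-like (63 and 84 with 50), 147 and 244 in alpha-like (15 and 49), 195 and 182 in delta-like (21 and 19), 312 and 175 in T-like (74 and 28), 340 and 184 in B-like (76 and 23), 131 and 153 in macrophage-like (21 and 25) and 228 and 90 in cDC-like cells (46 and 21), and 182 and 144 in cluster 6 (23 and 20). More genes pass the lower minimum, and genes with fewer UMIs have wider counting error. Scaling by the median ratio gave 24 genes higher in alpha-like cells, and turned 46 higher and 21 lower into 35 and 28 in cDC-like cells, and 23 and 20 into 20 and 26 in cluster 6. The setting with no minimum of genes was run for whole libraries only. Depth limits Fos in plasma-like and pDC-like cells and Atf3 in lymphocytes, which had under 50 UMIs.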
